A study of Oryctolagus cuniculus with 8 samples.

Results

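The genes described here encode the Wnt ligands, their receptors, the secreted and membrane antagonists and the intracellular effectors of the pathway. They were chosen by gene symbol alone (WNT, FZD, SFRP, DKK, DVL, AXIN, RSPO and LGR family names and a set of single genes such as RNF43, CTNNB1 and LEF1), and 46 of the 20922 gene entries of the deposited table met the rule. LRP5, ZNRF3, APC, NKD1 and NKD2, which the rule also names, were not analysed here. The families are not complete either. The frizzled genes among the 46 are FZD1, FZD2, FZD3, FZD5, FZD6 and FZD7, and the SFRP genes are SFRP2, SFRP4 and SFRP5. Ranks and summed levels of a family cover the genes among the 46 only. The libraries come from limbal epithelial cells of New Zealand white rabbits, sorted after staining with Hoechst 33342, a DNA dye, into side population cells (SP, 4 libraries), which are the cells that keep little dye, and the remaining non-side-population cells (NSP, 4 libraries). The RNA sequenced on the Ion Proton instrument was total RNA. The animals carry no stated genetic change and had no stated treatment, and no age is stated for them. Whether the libraries of a group come from different animals is not stated in the labels. The p-values therefore reflect how far these libraries differ from each other, which may be technical.

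Wnt proteins are lipid-modified secreted signals that bind frizzled receptors together with the coreceptors LRP5 and LRP6. In the canonical branch this stops a cytoplasmic destruction complex from degrading β-catenin, the product of CTNNB1, which then enters the nucleus and works with the DNA-binding factors of the TCF and LEF family. R-spondins, acting through LGR receptors, raise the response by removing the ubiquitin ligases RNF43 and ZNRF3, which otherwise clear frizzled receptors from the cell surface. Wnt signalling is known for its part in keeping the stem cells of many epithelia, and the limbus, which borders the cornea, is where the stem cells of the corneal epithelium lie.

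The SP libraries held between 15553295 and 18931836 exon reads and the NSP libraries between 20445565 and 23529101. The labelled tissue was checked against marker genes. The summed level of 12 limbal and corneal epithelial markers was between 1172 and 7748 CPM (counts per 1000000 reads of a library, after TMM scaling) in SP libraries and between 25941 and 45259 CPM in NSP libraries, and 11 of the 12 were lower in SP. Most tested markers of other cell types were higher in SP, namely 8 of 8 for endothelial cells, 8 of 8 for T and NK cells, 9 of 9 for melanocytes, 6 of 8 for myeloid cells, 6 of 9 for stromal cells (1 lower) and 4 of 6 for Schwann cells (1 lower). The summed levels were 1091 to 10561 CPM in SP and 8.96 to 15.4 CPM in NSP for 8 endothelial genes, and 599 to 2107 CPM in SP and 3.06 to 7.87 CPM in NSP for 8 T and NK cell genes. For 9 melanocyte genes they were 2169 to 13373 CPM in SP and 151.0 to 309 CPM in NSP, and for 9 myeloid genes 1035 to 2476 CPM in SP and 41.2 to 103.9 CPM in NSP. Of the myeloid sum in SP, LAPTM5 alone gave 669 to 1990.1 CPM, while SPI1 and CSF1R averaged 22.7 and 23.5 CPM. The myeloid gene MARCO, not tested, had 8 SP and 87 NSP reads. For 8 Schwann cell genes the summed levels were 257 to 1032 CPM in SP and 88.9 to 111.4 CPM in NSP, and for 10 stromal genes 234 to 401 CPM in SP and 53.8 to 84.0 CPM in NSP. The lymphocyte gene CD8B and the stromal genes COL3A1, LUM and KERA had no read in any NSP library. In such bulk RNA, fewer cells of a type and less RNA per cell cannot be told apart, and the part of cell makeup in the values that follow was not tested.

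More Wnt pathway genes were lower in SP than higher. Of the 46 genes, 39 had enough reads to be tested, 14 were lower in SP, 3 were higher and 22 did not pass (limma-voom, Benjamini-Hochberg adjusted p under 0.05 over 10012 genes). That is 35.9% lower and 7.69% higher among the tested Wnt genes, beside 13.3% lower and 17.6% higher among all tested genes. The median log2 fold change, SP over NSP, was -0.95 for the tested Wnt genes and 0.11 for all tested genes. With upper-quartile in place of TMM scaling the medians were -1.14 and -0.07, 16 Wnt genes were lower and 3 higher, and among all genes 16.5% were lower and 14.1% higher. All 4 SP libraries lay below all 4 NSP libraries for 13 tested Wnt genes and above them for 4, beside 14.2% and 18.6% of all tested genes. Among the tested genes, 5 (WNT4, WNT6, WNT7A, LGR5 and FZD2) had a mean SP level under the CPM minimum of the filter and passed it through their NSP reads. WNT4, WNT6 and LGR5 are among the 14 lower genes and so are part of the 35.9%. No tested Wnt gene had a mean NSP level under that minimum, but LEF1 came close to it. LEF1 reached the minimum of 0.508 CPM in only 2 NSP libraries, and its mean NSP level after TMM scaling was 0.508 CPM. It is among the 3 higher genes and so is part of the 7.69%. In the authors' deposited table, an EDGE test of the same libraries had a corrected p under 0.05 for 13 genes lower and 2 higher in SP among the same 39, beside 10.8% lower and 14.2% higher among all tested genes.

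**Figure D1:**
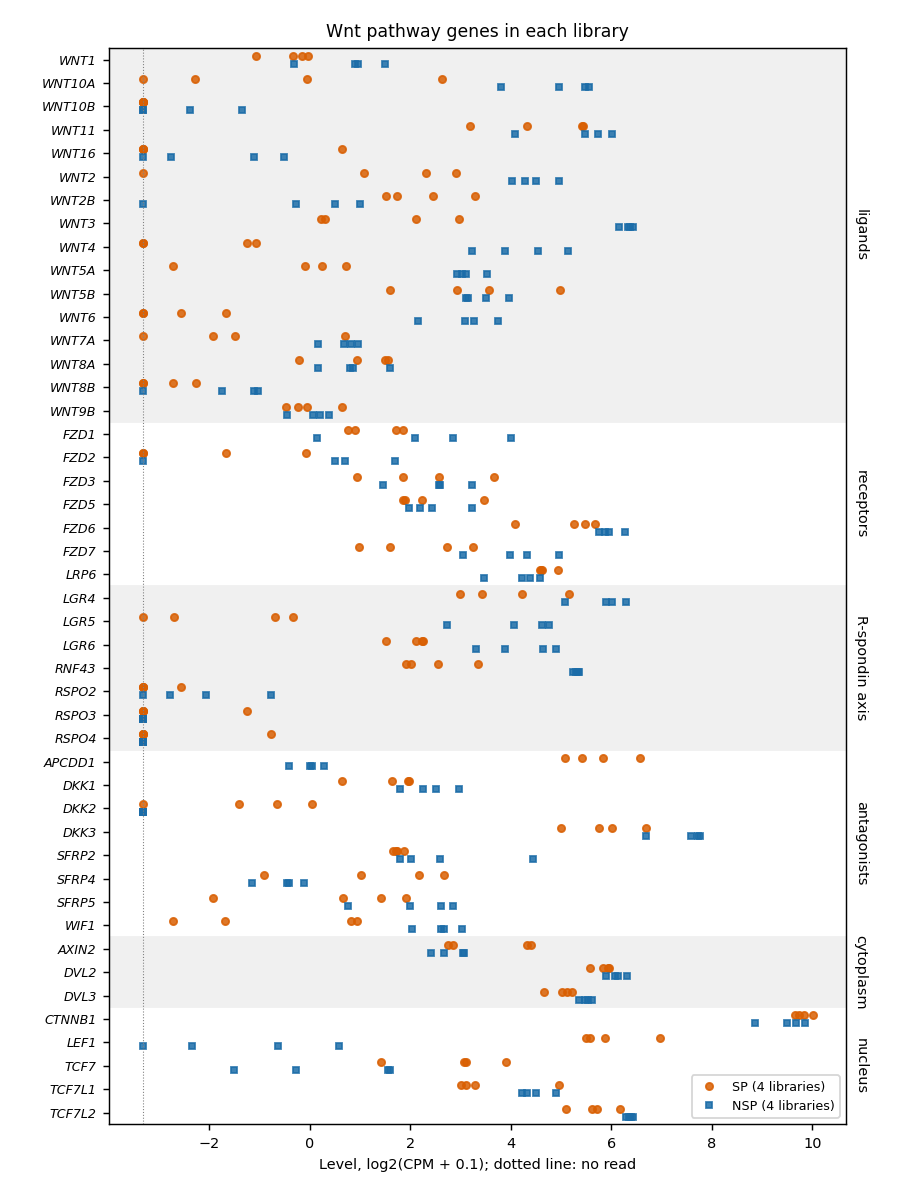
Level of each of the 46 genes in every library, as log2 of CPM plus 0.1 (horizontal axis), grouped by role; orange circles are the 4 SP libraries and blue squares the 4 NSP libraries, and points on the dotted line had no read. The SP circles of WNT3, WNT4, WNT6, WNT10A and LGR5 lie left of all NSP squares, and those of LEF1 and APCDD1 lie right of them.

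**Figure D2:**
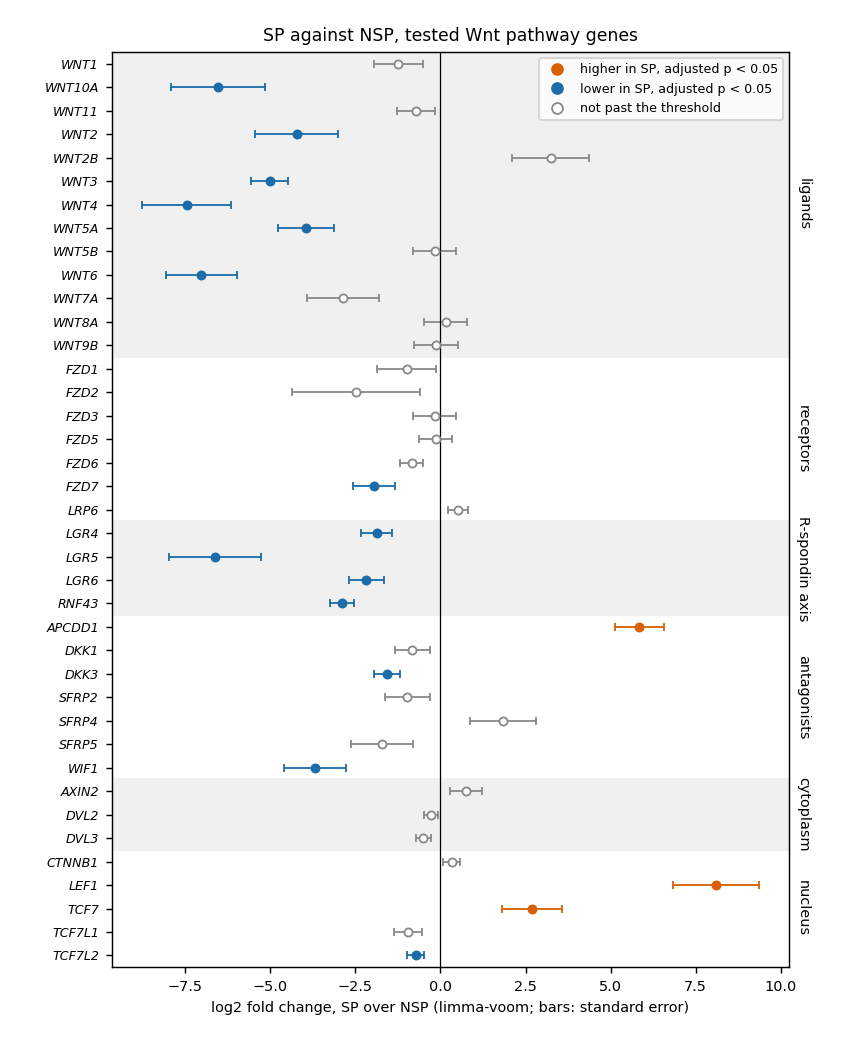
Log2 fold change, SP over NSP, with its standard error for the 39 tested genes by role; filled points passed an adjusted p of 0.05 in limma-voom. Of the filled points, 14 lie left of 0 and 3 (APCDD1, LEF1 and TCF7) right of it.

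Among the 16 ligand genes, 6 were lower in SP, none was higher, 7 did not pass and 3 were not tested. WNT3, a ligand of the canonical branch, had 7.76, 1.14, 1.07 and 4.24 CPM in SP libraries 1 to 4, against 82.6, 85.8, 71.2 and 80.4 CPM in NSP libraries 1 to 4. Every SP library was far below the NSP libraries, which lay close together, and the log2 fold change was -5.01 ± 0.54 (SE; adjusted p = 2.31e-04 in limma-voom). WNT10A, a ligand whose loss in humans causes ectodermal dysplasia, had 0.863, 0, 0.107 and 6.11 CPM in SP, against 44.7, 46.8, 13.8 and 31.0 CPM in NSP. The groups were apart, with SP library 4 the highest of its group (log2 fold change -6.53 ± 1.39, adjusted p = 0.00574 in limma-voom). WNT4, known for its role in kidney and ovary development in mice, was close to absent from SP, at 0.377, 0, 0.320 and 0 CPM, against 34.9, 23.2, 9.31 and 14.7 CPM in NSP. WNT6, a ligand of surface ectoderm in the embryo, was also close to absent, with 0.216, 0, 0 and 0.0694 CPM in SP against 9.53, 13.3, 4.36 and 8.45 CPM in NSP. Their log2 fold changes were -7.45 ± 1.30 and -7.02 ± 1.05 (adjusted p = 0.00214 and 9.42e-04 in limma-voom).

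WNT5A, the best studied ligand of the β-catenin-independent branch, had 1.08, 0.0517, 1.55 and 0.833 CPM in SP and 11.5, 8.07, 7.56 and 8.55 CPM in NSP. Each NSP library exceeded each SP library, and the log2 fold change was -3.95 ± 0.82 (adjusted p = 0.00495 in limma-voom). WNT2, a ligand known from lung and placenta in mice, had 4.85, 7.44, 0 and 2.01 CPM in SP, against 31.0, 22.7, 19.4 and 16.1 CPM in NSP (-4.22 ± 1.21, adjusted p = 0.0237 in limma-voom). The groups did not overlap, and SP library 3 held no read. Without that library the log2 fold change was -2.31, without SP library 1 -4.92 and without SP library 2 -5.16. Removing SP library 2 also gave -2.93 for WNT5A, -5.23 for WNT10A and -6.68 for WNT4, removing SP library 1 gave -8.09 for WNT4 and -7.65 for WNT6, and removing SP library 4 gave -7.91 for WNT10A. With limma-trend, where 0.5 CPM is added before the logarithm, the values were -4.85 for WNT4, -3.96 for WNT6, -4.61 for WNT10A, -3.04 for WNT2 and -2.91 for WNT5A. Sample quality weights gave -8.01 for WNT10A, -7.63 for WNT6 and -4.73 for WNT5A. All of these kept an adjusted p under 0.05.

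The remaining ligand genes did not pass. WNT11, a ligand of cell movement in embryos, had 43.1, 42.5, 9.07 and 19.9 CPM in SP and 53.4, 16.9, 64.5 and 44.4 CPM in NSP, so that the groups overlapped (log2 fold change -0.72 ± 0.56, adjusted p = 0.361 in limma-voom). WNT5B, a close relative of WNT5A, had 7.55, 31.6, 2.93 and 11.7 CPM in SP, against 15.6, 8.54, 11.3 and 8.74 CPM in NSP (-0.17 ± 0.62, adjusted p = 0.859 in limma-voom). SP library 3 was the lowest of its group for both genes, and the groups overlapped. WNT2B went the other way from the called ligands, with 2.75, 5.38, 3.25 and 9.65 CPM in SP above the 0.723, 1.90, 0 and 1.31 CPM in NSP, and narrowly missed the threshold (3.24 ± 1.13, adjusted p = 0.0507 in limma-voom). Its value passed with limma-trend (2.02, adjusted p = 0.0185) and in limma-voom without SP library 1 (3.49, adjusted p = 0.0448). It was 1.88 without NSP library 3 (adjusted p = 0.083), and the highest adjusted p among the alternatives was 0.105, without NSP library 1. The log2 fold change of WNT7A, a ligand active in limb patterning of chick and mouse embryos, was -2.86 ± 1.06 (adjusted p = 0.0628 in limma-voom). It passed with sample quality weights (-3.16, adjusted p = 0.0355 in limma-voom) and without SP library 4 (-3.89, adjusted p = 0.0209), and was -1.85 without SP library 3 and -1.23 with limma-trend, neither past the threshold. WNT1, WNT8A and WNT9B stayed under 3 CPM in every library, with log2 fold changes of -1.24, 0.15 and -0.12. WNT10B, WNT16 and WNT8B were too low to test. WNT10B had no SP read and 8 NSP reads, at least 2.25-fold lower in SP against a floor of 3 reads over the group. All 27 SP reads of WNT16 came from SP library 1, against 22 reads in 3 NSP libraries. WNT8B had 3 SP reads and 20 NSP reads, an NSP over SP ratio of 5.62 (exact 95% counting interval 1.67 to 29.5). Such floors and intervals cover counting error only.

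Per exon length, which allows levels of different genes to be compared, the order of the ligands differed between the groups. In SP, WNT11 stood first at 14.1 CPM per kb, followed by WNT5B at 7.65 CPM per kb and WNT2 at 1.55 CPM per kb. The third place was not firm, since WNT2 exceeded WNT3 (mean 1.09 CPM per kb) in SP library 2 only. In NSP, WNT3 (24.6 CPM per kb) and WNT11 (22.0 CPM per kb) led and were not apart, since WNT11 ranged over the level of WNT3 between libraries, and WNT10A followed at 15.2 CPM per kb. Summed over the 16 ligand genes the level was 28.9 ± 14.7 CPM per kb in SP and 101.5 ± 15.9 CPM per kb in NSP (SD, n = 4 libraries each). WNT11 made up 47.3 ± 10.6% of that sum in SP and 22.0 ± 11.0% in NSP, WNT5B 23.5 ± 12.1% in SP and 6.13 ± 1.16% in NSP, and WNT3 4.00 ± 2.66% in SP and 24.6 ± 3.03% in NSP. These levels rest on the exon lengths of the deposited gene models.

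**Figure D3:**
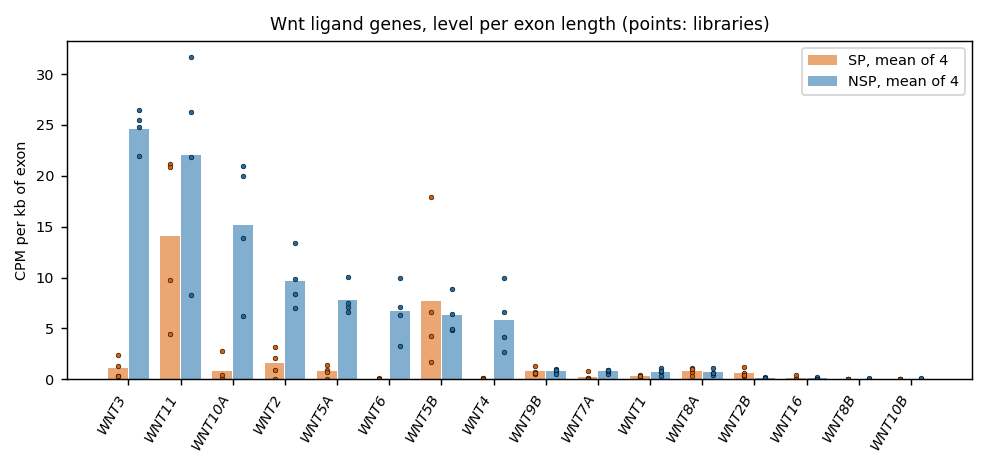
Level of the 16 Wnt ligand genes per exon length (CPM per kb, vertical axis), ordered by their NSP mean; orange bars are SP means and blue bars NSP means, and points are the 4 libraries of each group. WNT3 is tall in NSP (24.6) and low in SP (1.09), whereas the WNT11 and WNT5B points of the groups overlap.

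Of the 7 receptor genes, FZD7 was lower in SP and the other 6 did not pass. FZD7, a frizzled known from embryonic and intestinal stem cells, had 9.44, 1.86, 6.56 and 2.92 CPM in SP and 30.9, 19.9, 8.21 and 15.8 CPM in NSP. SP library 1 lay above NSP library 3, so the groups overlapped (log2 fold change -1.96 ± 0.62, adjusted p = 0.0343 in limma-voom). The call ended without SP library 2 or 3 or NSP library 1, 2 or 4, with adjusted p between 0.0535 and 0.0976. FZD6 is a frizzled with a role in planar polarity of hair follicles in mice. Of the 6 frizzled genes found here it had the highest level per exon length in both groups. That level was 11.4 CPM per kb in SP and 18.9 CPM per kb in NSP. FZD6 had 16.8, 44.7, 51.1 and 38.4 CPM in SP and 58.8, 76.7, 53.9 and 61.5 CPM in NSP. All SP values lay below the NSP values, but the difference did not pass (-0.84 ± 0.34, adjusted p = 0.0857 in limma-voom), although it did with upper-quartile scaling (-1.02, adjusted p = 0.0422) and without SP library 4 (-1.03, adjusted p = 0.048). FZD6 made up 60.7 ± 16.4% of the summed frizzled level in SP and 62.2 ± 9.93% in NSP, and that sum was 18.1 ± 3.41 CPM per kb in SP and 30.9 ± 6.27 CPM per kb in NSP (SD, n = 4 each).

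FZD1, FZD2, FZD3 and FZD5, further members of the frizzled family, differed by log2 fold changes of -0.99, -2.48, -0.17 and -0.14 (adjusted p between 0.347 and 0.863 in limma-voom). FZD2 had reads in SP libraries 1 and 3 and in NSP libraries 1, 2 and 4, and passed without NSP library 3 (-3.99, adjusted p = 0.038). The coreceptor gene LRP6 had 23.7, 24.0, 24.4 and 30.5 CPM in SP, against 18.5, 23.7, 10.9 and 20.7 CPM in NSP. SP library 4 stood above the other SP libraries for it. The lowest SP library stood level with the highest NSP library to 3 digits, and the log2 fold change was 0.51 ± 0.30 (adjusted p = 0.228 in limma-voom).

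All 4 tested genes of the R-spondin axis were lower in SP. RNF43, the ubiquitin ligase that removes frizzled receptors and is itself a Wnt target in the intestine, had 3.67, 5.74, 3.95 and 10.1 CPM in SP and 40.4, 40.6, 39.2 and 37.5 CPM in NSP. The NSP libraries were nearly equal and far above SP, with a log2 fold change of -2.90 ± 0.35 (adjusted p = 3.62e-04 in limma-voom). LGR5, an R-spondin receptor that marks stem cells of the intestine and hair follicle in mice, had 0, 0.517, 0.0534 and 0.694 CPM in SP and 16.6, 24.4, 6.56 and 27.1 CPM in NSP. It was thus close to absent from SP and present in every NSP library (-6.62 ± 1.35, adjusted p = 0.00463 in limma-voom). The LGR5 value was -5.75 without SP library 1, -7.44 without SP library 4 and -4.48 with limma-trend, each with an adjusted p under 0.05. LGR6, a receptor of the same family and a marker of hair follicle stem cells in mice, had 4.58, 4.24, 2.77 and 4.65 CPM in SP and 9.85, 24.9, 14.7 and 29.6 CPM in NSP, without overlap (-2.18 ± 0.51, adjusted p = 0.00974 in limma-voom). LGR4, the most widely expressed of the 3 receptors, had 35.7, 18.5, 7.84 and 10.6 CPM in SP and 64.9, 78.2, 33.8 and 59.3 CPM in NSP. Only SP library 1 reached above the lowest NSP library, and the log2 fold change was -1.87 ± 0.46 (adjusted p = 0.0115 in limma-voom).

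The sum of the 3 LGR genes was 4.30 ± 2.48 CPM per kb in SP and 19.1 ± 6.38 CPM per kb in NSP (SD, n = 4 each). LGR4 took 78.0 ± 9.26% of it in SP and 60.4 ± 7.95% in NSP, and LGR5 2.10 ± 2.34% in SP and 20.8 ± 5.29% in NSP. The R-spondin ligands themselves were scarcely detected and were not tested. RSPO2 had 1 SP read and 14 NSP reads, an NSP over SP ratio of 11.8 (exact 95% counting interval 1.80 to 499). RSPO3 had 6 reads, all in SP library 3, and RSPO4 7 reads, all in SP library 4, with no NSP read for either.

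Antagonist genes differed in both directions. APCDD1, which encodes a membrane-bound inhibitor that binds Wnt and LRP proteins, had 33.8, 56.7, 42.4 and 95.5 CPM in SP and 0.904, 0.928, 0.651 and 1.12 CPM in NSP. Every SP library was far above each NSP library, with a log2 fold change of 5.84 ± 0.71 (adjusted p = 3.68e-04 in limma-voom). DKK3, a divergent member of the Dickkopf family, had 103.8, 32, 53.6 and 64.4 CPM in SP and 218, 190.9, 102.6 and 211 CPM in NSP. SP library 1 and NSP library 3 met at nearly the same level, and the gene was lower in SP (-1.58 ± 0.38, adjusted p = 0.0101 in limma-voom). WIF1, a secreted protein that binds Wnt ligands, had 1.67, 0.0517, 0.213 and 1.81 CPM in SP and 6.05, 8.07, 4.01 and 6.27 CPM in NSP, without overlap (-3.68 ± 0.91, adjusted p = 0.0121 in limma-voom). The WIF1 value was -2.76 without SP library 2, -4.31 without SP library 1, -4.41 without SP library 4, -2.44 with limma-trend and -4.69 with sample quality weights, each with an adjusted p under 0.05.

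DKK3 made up 90.3 ± 5.40% of the summed DKK level per exon length in SP and 94.9 ± 0.959% in NSP (SD, n = 4 each). DKK1, which blocks LRP coreceptors, had 3.77, 3.00, 3.84 and 1.46 CPM in SP, against 7.77, 5.57, 3.35 and 4.66 CPM in NSP (-0.82 ± 0.50, adjusted p = 0.243 in limma-voom). DKK2, a further Dickkopf protein, had 10, 18, 0 and 4 reads in SP libraries 1 to 4 and none in NSP, at least 12.6-fold higher in SP. It was under the filter and not tested. In the authors' deposited table its EDGE corrected p was 0.0218, and in limma-voom without the filter its adjusted p was 0.0298. SFRP2, a secreted frizzled-related protein that binds Wnt ligands, had 3.23, 3.20, 3.57 and 3.06 CPM in SP and 3.93, 21.6, 5.91 and 3.35 CPM in NSP. SP was even, and NSP library 2 lay far above the other NSP libraries (-0.97 ± 0.66, adjusted p = 0.297 in limma-voom). SFRP4, of the same family, had 0.431, 6.31, 1.92 and 4.44 CPM in SP, against 0.633, 0.650, 0.350 and 0.826 CPM in NSP (1.84 ± 0.98, adjusted p = 0.183 in limma-voom), and passed without SP library 1 (2.62, adjusted p = 0.0217). SFRP5, a further relative, was at -1.72 ± 0.91 (adjusted p = 0.177 in limma-voom), and at -0.78 without SP library 1.

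None of the 3 cytoplasmic genes passed. AXIN2, a scaffold of the destruction complex that many tissues raise when canonical signalling is active, had 7.12, 6.62, 19.8 and 21.0 CPM in SP and 8.22, 6.26, 8.26 and 5.20 CPM in NSP. SP libraries 3 and 4 lay above all NSP libraries and SP libraries 1 and 2 within their range (log2 fold change 0.75 ± 0.48, adjusted p = 0.266 in limma-voom). DVL2, a Dishevelled protein that relays the signal from frizzled, had 47.8, 56.7, 60.7 and 61.7 CPM in SP, against 59.1, 79.0, 67.3 and 69.6 CPM in NSP (-0.28 ± 0.21, adjusted p = 0.342 in limma-voom). DVL3, its relative, had 34.8, 37.0, 25.2 and 32.3 CPM in SP and 49.1, 44.7, 46.5 and 40.8 CPM in NSP. The DVL3 groups did not overlap, yet the difference did not pass (-0.50 ± 0.23, adjusted p = 0.125 in limma-voom), although it did with upper-quartile scaling (-0.68, adjusted p = 0.0444) and without SP library 4 (-0.66, adjusted p = 0.0465).

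Of the 5 nuclear genes, LEF1 and TCF7 were higher in SP and TCF7L2 was lower, while TCF7L1 and CTNNB1, the β-catenin gene itself, did not pass. CTNNB1 had 851, 915, 1029 and 803 CPM in SP and 927, 724, 464 and 813 CPM in NSP, with overlapping groups (log2 fold change 0.34 ± 0.25, adjusted p = 0.342 in limma-voom). LEF1, a factor of T cell, hair follicle and melanocyte development, had 47.6, 58.4, 44.9 and 124.9 CPM in SP and 0.542, 1.39, 0 and 0.0972 CPM in NSP. It was present in every SP library and nearly absent from NSP (8.09 ± 1.25, adjusted p = 0.00116 in limma-voom). The LEF1 value was 8.98 without NSP library 2, 7.06 without NSP library 3 and 6.18 with limma-trend, each with an adjusted p under 0.05. TCF7, a factor known from T cell development, had 8.57, 8.27, 14.9 and 2.57 CPM in SP and 2.94, 2.83, 0.250 and 0.729 CPM in NSP. SP library 4 fell within the NSP range (2.69 ± 0.87, adjusted p = 0.039 in limma-voom). The TCF7 call ended without SP library 1, 2 or 3 or any NSP library, with adjusted p between 0.0558 and 0.105 and a value of 2.01 without NSP library 3, and in the authors' deposited table its EDGE corrected p was 0.0622.

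TCF7L2, the family member prominent in intestinal epithelium, had 49.2, 52.6, 34.2 and 72.5 CPM in SP and 84.4, 78.3, 86 and 81.3 CPM in NSP. All SP libraries lay below the NSP libraries, and the difference was small (-0.72 ± 0.25, adjusted p = 0.0481 in limma-voom). That call ended without SP library 1, 2 or 3 or any NSP library (adjusted p between 0.0605 and 0.13), without the filter (0.0627) and with limma-trend (0.0543), and the authors' deposited table gave an EDGE corrected p of 0.224. TCF7L1, known mainly as a repressor, had 9.65, 8.58, 8.0 and 31.2 CPM in SP and 29.8, 22.6, 18.6 and 19.9 CPM in NSP. Of the SP libraries, library 4 alone reached above the NSP libraries, and the gene did not pass (-0.95 ± 0.42, adjusted p = 0.109 in limma-voom), although it did without that library (-1.52, adjusted p = 0.00609) and with sample quality weights (-1.20, adjusted p = 0.0195). Summed per exon length, the 4 factors reached 43.7 ± 13.1 CPM per kb in SP and 31.7 ± 3.25 CPM per kb in NSP (SD, n = 4 each). LEF1 took 36.1 ± 7.99% of the sum in SP and 0.370 ± 0.474% in NSP, TCF7 21.4 ± 14.2% in SP and 4.84 ± 3.82% in NSP, TCF7L1 12.1 ± 5.25% in SP and 28.5 ± 3.27% in NSP, and TCF7L2 30.4 ± 5.30% in SP and 66.2 ± 6.98% in NSP.

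**Figure D4:**
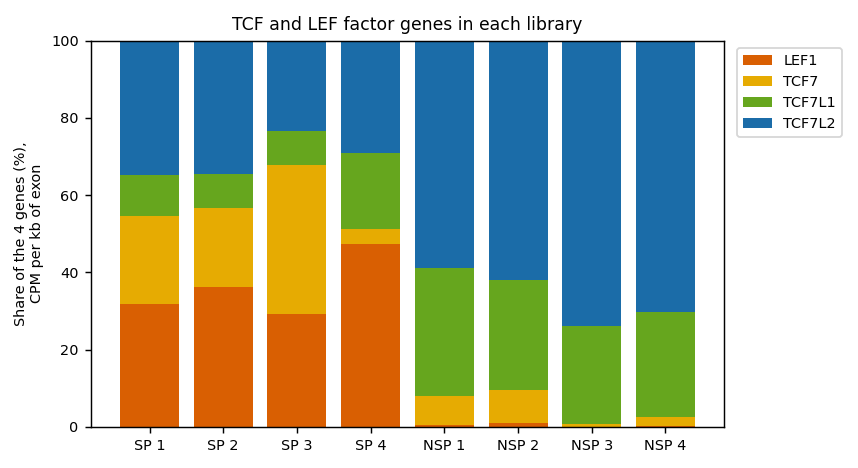
Share of each TCF and LEF factor gene in the summed level of the 4 genes (CPM per kb of exon, percent, vertical axis) in each of the 4 SP and 4 NSP libraries. LEF1 holds between 29.2% and 47.3% in SP libraries and at most 1.04% in NSP libraries, where TCF7L2 holds between 58.9% and 73.8%.

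The order of the libraries within a group was compared with the marker sums. SP library 4 was the highest SP library for 17 of the 39 tested genes, among them LEF1 and APCDD1. The same share over all tested genes is not given here. That library also had the highest endothelial sum (10561 CPM, against 1091, 3807 and 4269 CPM in SP libraries 1 to 3). In SP libraries 1 to 3, LEF1 had 47.6, 58.4 and 44.9 CPM and APCDD1 33.8, 56.7 and 42.4 CPM. Neither order followed that of the endothelial sum. The melanocyte sum was highest in SP library 1 (13373 CPM). TCF7 was highest in SP library 3, which had the highest T and NK cell sum (2107 CPM), and lowest in SP library 4, whose sum was 748 CPM. The order of the other SP libraries did not follow the sum: library 1, with the lowest sum (599 CPM), had 8.57 CPM of TCF7, and library 2, with a sum of 1394 CPM, had 8.27 CPM. Among the 14 genes lower in SP, the highest SP value lay in SP library 1 for 6 genes and in SP library 4 for 6 genes. These libraries also had the highest epithelial sums of the SP group, 7748 and 5802 CPM, against 3864 CPM in SP library 2 and 1172 CPM in SP library 3. KRT12 gave 3798 CPM of the sum in SP library 1, and KRT15 gave 2029.7 CPM of that in SP library 4. CDH1, EPCAM, KLF5 and PAX6 of the same markers were highest in SP library 2, and the other markers in SP library 1 or 4. SP library 2 was the lowest SP library for 7 of the 14 genes and SP library 3 for 5. Over all 39 tested genes, SP library 1 was the highest for 9. Of the NSP libraries, library 3 had the lowest epithelial sum (25941 CPM) and was the lowest NSP library for 10 of these 14 genes, for all 3 genes higher in SP, and for 25 of all 39 tested genes. NSP library 3 also had the fewest exon reads of its group (20445565). It had the fewest gene entries with a read as well, 10382 against 10942 to 11531 in the other NSP libraries. The shares of all tested genes with their extreme in a given library are not given here. In the same limma-voom fit the epithelial markers had a median log2 fold change of -3.18, with single markers between -6.42 (KRT15) and -1.42 (CDH3). WNT2, WNT3, WNT4, WNT5A, WNT6, WNT10A, LGR5 and WIF1 were below that median, and RNF43, LGR4, LGR6, FZD7, DKK3 and TCF7L2 were above it. Of these genes, TCF7L2 lay above the range of single markers, and WNT4, WNT6, WNT10A and LGR5 lay below it. The others lay within it. WNT4, WNT6, WNT10A and LGR5 each had no read in some SP library, and WNT4, WNT6 and LGR5 passed the filter through their NSP reads. With limma-trend these genes stood at -4.85, -3.96, -4.61 and -4.48, inside the limma-voom range of the markers. Their place below that range thus held in limma-voom and not in each model. The limma-trend values of the markers are not given here. The part of the marker genes' cell types in any of these values was not tested.

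**Figure D5:**
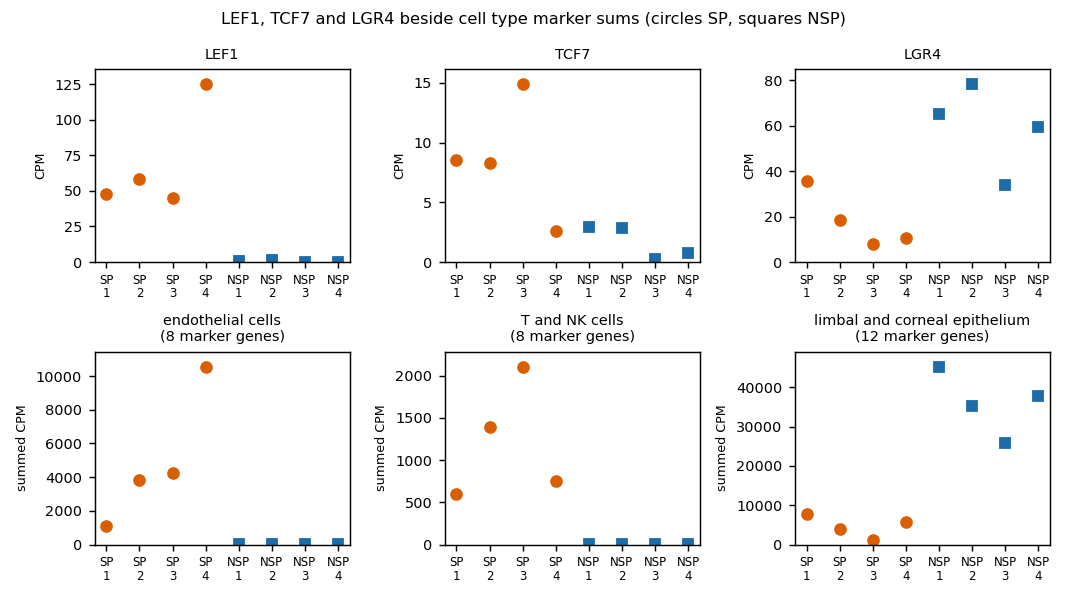
Level of LEF1, TCF7 and LGR4 (top, CPM) and summed level of endothelial, T and NK cell and epithelial marker genes (bottom, summed CPM) in each library; orange circles are SP libraries and blue squares NSP libraries. SP library 4 has the highest LEF1 level (124.9) and endothelial sum (10561), SP library 3 the highest TCF7 level (14.9) and T and NK cell sum (2107), and SP library 1 the highest LGR4 level (35.7) and epithelial sum (7748) of the SP group.

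Other pathway genes were described in 5 lists by role. Among genes of Wnt secretion and extracellular regulation, 4 of 9 tested (44.4%) were lower in SP and 3 (33.3%) higher, with a median log2 fold change of -0.38. Among all tested genes 13.3% were lower and 17.6% higher. WLS, which carries Wnt proteins to the cell surface, averaged 76.5 ± 25.0 CPM in SP, against 641 ± 197.9 CPM in NSP (SD, n = 4 each; log2 fold change -3.08 ± 0.30, adjusted p = 1.65e-04 in limma-voom). FRZB, a secreted frizzled-related antagonist, averaged 6.08 ± 9.72 CPM in SP, against 292 ± 53.7 CPM in NSP (-8.22 ± 1.23, adjusted p = 9.66e-04 in limma-voom), and GPC4, a cell surface proteoglycan, stood at -2.67 ± 0.37 (adjusted p = 6.28e-04). Higher in SP were RECK (5.74 ± 1.08) and TSPAN12 (3.58 ± 0.64), which serve Wnt7 and Norrin signalling in blood vessels, and TRABD2A (2.93 ± 0.51), a protease that inactivates Wnt ligands (adjusted p = 0.00308, 0.00239 and 0.00201 in limma-voom).

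Of the 15 tested genes of the destruction complex and its regulators, 3 (20%) were higher in SP, 2 (13.3%) were lower and 10 did not pass, with a median log2 fold change of -0.21. Those shares were near the 17.6% higher and 13.3% lower of all tested genes. The higher ones were the Dishevelled-binding genes CCDC88C (4.13 ± 0.64), CXXC5 (1.92 ± 0.32) and DACT1 (3.99 ± 0.81), with limma-voom adjusted p of 0.00115, 0.00171 and 0.00445. The lower ones were BTRC, the ubiquitin ligase subunit that recognises β-catenin (-0.84 ± 0.22), and the Dishevelled-binding gene CXXC4 (-3.52 ± 1.02). Of 8 tested nuclear partners of β-catenin, 3 (37.5%) were higher and 1 (12.5%) lower (median 0.59), beside the same shares of all tested genes. The higher ones were the corepressors TLE1, with 130.2 ± 14.9 CPM in SP against 31.7 ± 11.0 CPM in NSP (2.11 ± 0.29, adjusted p = 6.60e-04 in limma-voom), and TLE4 (0.87 ± 0.29), and the chromatin remodeller CHD8 (0.78 ± 0.21). CBY1, which binds β-catenin and opposes it, was lower (-1.27 ± 0.41, adjusted p = 0.0378 in limma-voom).

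In the β-catenin-independent and planar polarity branch, 6 of 20 tested genes (30%) were lower in SP, 4 (20%) were higher and 10 did not pass (median -0.96). Among all tested genes 13.3% were lower and 17.6% higher, so the share higher was near that of all genes. The planar polarity cadherin CELSR2 averaged 12.9 ± 3.63 CPM in SP, against 84.6 ± 10.6 CPM in NSP (-2.75 ± 0.28, adjusted p = 1.71e-04 in limma-voom). The polarity gene PRICKLE3 (-2.01 ± 0.39) and ROR1, a receptor of WNT5A (-4.29 ± 1.06), were lower as well, as WNT5A was. PPP3CA, a catalytic subunit of calcineurin (1.10 ± 0.24), DAAM2, a formin that binds Dishevelled (6.51 ± 1.61), and PRICKLE1 (1.67 ± 0.44) were higher. Of 18 tested genes that are widely used as Wnt targets, 6 (33.3%) were lower, 2 (11.1%) higher and 10 did not pass (median -0.39), beside the same shares of all tested genes. FOSL1, a subunit of the AP-1 factor, averaged 41.4 ± 26.6 CPM in SP, against 411 ± 52.9 CPM in NSP (-3.52 ± 0.34, adjusted p = 1.65e-04 in limma-voom). The receptor gene MET (-1.56 ± 0.24) and the angiogenic factor gene VEGFA (-2.41 ± 0.39) were lower, and SP5, a zinc finger factor (5.96 ± 1.30), and TCF4 (3.75 ± 0.36) were higher. TCF4 encodes a factor outside the TCF and LEF family despite its symbol. Many of these genes also respond to other signals.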

How the data were processed

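RNA-seq of 4 SP and 4 NSP samples was analysed from 1 table that the authors deposited, fixed-width text with 20922 entries and 163 fields of 8 characters. The fold changes and p-values in it are those of an EDGE test by the authors, as the headers name it. Which aligner, genome build and annotation were used is not given in the sources used here. Each library's whole-number exon count, the exon length and the EDGE columns were read by character position from the deposited fields. Headers are cut at 8 characters and show the group only, so that these fields are exon counts and lengths was inferred from their values. The deposited group means were recomputed from the counts, with a largest difference of 0.05. The other 136 per-library fields were not used. The columns give a group without a sample number, and replicates were numbered 1 to 4 by column order. Names are cut at 8 characters, and entries without a usable name (10.3% of reads) stayed in totals and tests.

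TMM factors (trims of 30% and 5%) scaled the counts. A gene was kept if 4 or more libraries reached 0.508 CPM, which is 10 reads in the median library, and if it had 15 reads in all. The 10012 genes left were tested with limma-voom (limma 3.58.1, R 4.3.3; count offset 0.5; group only), two-sided, with Benjamini-Hochberg adjustment. The procedure was tested on simulated data with the same dispersion for all genes and few changed genes. Those data were simpler than these libraries, so that run does not give the error rate here. Although the values are counts, edgeR and DESeq2 were not used: neighbouring fields touch, so no column could be declared as counts when the test was planned, and limma-voom was planned instead. No 2 libraries were duplicates, with Pearson correlations of log2 counts up to 0.983. Groups of 4 were searched for a library far from the rest with Dixon's ratio (critical value 0.829). Tables and plots were made with pandas 2.3.3 and NumPy 2.4.6 under Python 3.11.15, the plots with matplotlib 3.10.9.

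The gene choice, the role lists and the marker lists were made with earlier results of these data known. Levels in every library are given for genes past the threshold, the highest gene of each family and a few fixed genes, and some others were added after their values were seen. From each role list up to 3 genes per direction with the smallest p are named.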

Additional observations from a re-analysis of the deposited data

Results flagged for a closer look

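In 7 of 78 groups of 4 libraries, 1 for each group of each tested gene, a single library stood far from the other 3. The critical value flags about 1 in 20 groups of independent, normally distributed values. CPM near 0 are skewed and the genes share libraries, so the share that chance flags here is not known. In 6 of the 7 groups the library was SP library 4. There LEF1 was at 124.9 CPM (other SP libraries 44.9 to 58.4), TCF7L1 at 31.2 CPM (8.0 to 9.65), LRP6 at 30.5 CPM (23.7 to 24.4), FZD5 at 11.0 CPM (3.51 to 4.59), WNT10A at 6.11 CPM (0 to 0.863) and WNT7A at 1.53 CPM (0 to 0.258). The same library had the fewest exon reads (15553295) and the highest endothelial marker sum of the 8 libraries. Without it, 18 Wnt genes were lower in SP and 3 higher, beside 14 and 3 with all libraries. Among all tested genes, 18% were lower and 19.5% higher without it, beside 13.3% and 17.6% with all libraries. In NSP, SFRP2 was at 21.6 CPM in library 2 and at 3.35 to 5.91 CPM in the others.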

How the results depend on the processing

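Results were recomputed under 15 alternatives, 7 of scaling, filter or model and 8 that leave out 1 library. The number of Wnt genes lower in SP was 14 and ranged between 12 and 18, and the number higher was 3 and ranged between 2 and 4. Over the same alternatives, 9.53% to 18% of all tested genes were lower and 11.7% to 23.4% were higher. Of the 17 called genes, 14 stayed past the threshold throughout, and FZD7, TCF7 and TCF7L2 did not. Of the 22 others, 7 passed in at least 1 alternative. No called gene changed direction, and 5 genes that did not pass did. WNT5B stood at 0.31 with quality weights and WNT8A at -0.03 with upper-quartile factors. With 1 library left out, the values of the 5 ranged from -0.80 to 0.41 for WNT5B, -0.65 to 0.08 for FZD3, -0.62 to 0.11 for FZD5, -0.09 to 0.40 for WNT8A and -0.49 to 0.05 for WNT9B, and the cause was not tested. The median log2 fold change of all genes was 0.11 with TMM, 0.00 with median-ratio and -0.07 with upper-quartile factors. No paired analysis was possible because the columns carry no replicate number of the labels. Genes with few reads have wide errors, and differences under their error were not detectable at this depth.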
